A study of Homo sapiens with 12 samples.

Results

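Cholesterol and fatty acid synthesis was described through 30 genes that encode enzymes of both pathways together with the proteins that sense sterols, control the enzymes' genes or carry cholesterol. The genes were listed by symbol and found through the Ensembl identifier of each symbol. All 30 matched 1 row each among the 57992 gene identifiers of the count table, and all 30 were among the 16022 genes that passed a filter on low counts. By role they comprised 7 genes of the mevalonate pathway, 3 genes that carry it from squalene to lanosterol, 8 genes of the steps from lanosterol to cholesterol, 6 regulators and a sterol carrier counted together, and 6 genes of fatty acid synthesis and desaturation.

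Cells build cholesterol from acetyl-CoA through mevalonate, isoprenoids, squalene and lanosterol. When the membrane of the endoplasmic reticulum is poor in cholesterol, the escort protein SCAP carries the sterol regulatory element-binding proteins (SREBPs), encoded by SREBF1 and SREBF2, to the Golgi, where proteases release a fragment that enters the nucleus and activates most of the genes described here. When sterols are plentiful, INSIG proteins hold SCAP back, and INSIG1 is itself an SREBP target. In macrophages and microglia, sterol synthesis, uptake and efflux are known to shift with inflammatory activation.

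RNA sequencing covered 12 libraries of induced microglia-like cells (iMGLs) differentiated in culture from H1, an established line of human pluripotent stem cells, and labelled as microglia. There were 3 libraries of unedited cells given vehicle (WT) and 3 of MEF2C knockout cells given vehicle (KO), MEF2C being a transcription factor expressed in microglia. Another 2 libraries came from WT cells given the bacterial lipopolysaccharide LPS (WT LPS), 2 from knockout cells given LPS (KO LPS), and 2 from knockout cells given LPS together with BMS265246 (KO LPS BMS), a kinase inhibitor that the series title ties to CDK2. All groups share the H1 background and the differentiation, and no library held the compound without LPS or in WT cells. The sources used here give neither the kind of MEF2C edit and the number of clones nor the dose or duration of either treatment. The labels call replicates biological but do not say that they came from separate differentiations, so p-values measure only the spread between these libraries.

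Total counts per library ranged from 13888283 to 17639136, and levels are TMM-scaled CPM, counts relative to library size after scaling. A count of 0 would allow a level of up to 0.154 to 0.236 CPM, a limit that covers counting error only, and every member lay above it in every library. MEF2C was at 177 to 192 CPM in WT and 129 to 136 CPM in KO libraries (log2 fold change -0.47 ± 0.05 (SE), edgeR adjusted p = 4e-07), and with LPS at 45.9 to 51.6 CPM in both genotypes, so that MEF2C was still counted in the knockout libraries. All 6 genes used to check the LPS response rose in both genotypes. Of 15 microglia and macrophage markers, 14 passed the filter, with a summed level of 8033 to 9571 CPM in every library. CD68 did not pass it, and 85.8% of its exon bases in GENCODE release 29 lie in other annotated genes too, so its count is no measure of its level. The 6 markers of pluripotent cells summed to at most 0.617 CPM. The KO LPS pair agreed least among the replicates, with a chi-square per degree of freedom of 11.1 across genes against 2.05 to 6.88 for the other pairs.

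With BMS265246 in LPS-treated knockout cells, most of the set rose. Of the 30 genes, 24 were higher in KO LPS BMS than in KO LPS at an adjusted p under 0.05 (called), 2 were lower (PMVK and FADS1) and 4 passed in neither direction (IDI1, SREBF1, INSIG2 and FADS2). Among all genes tested 47.8% were called, 22.3% higher and 25.5% lower. The median log2 fold change was 0.50 over the 30 genes and -0.04 over all genes tested. A rise of at least 2-fold was called for 5 of the 30, INSIG1, MVD, MSMO1, SCD and SC5D, against 3.93% of all genes, and a fall of that size for 0 against 7.83%. Both KO LPS BMS libraries lay above both KO LPS libraries for 24 members (32.8% of all genes) and below them for 4 (37.6%). For 20 members both lay above all 10 other libraries, as for 17.4% of all genes, and for FADS1 both lay below all 10, as for 18.9%.

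**Figure D1:**
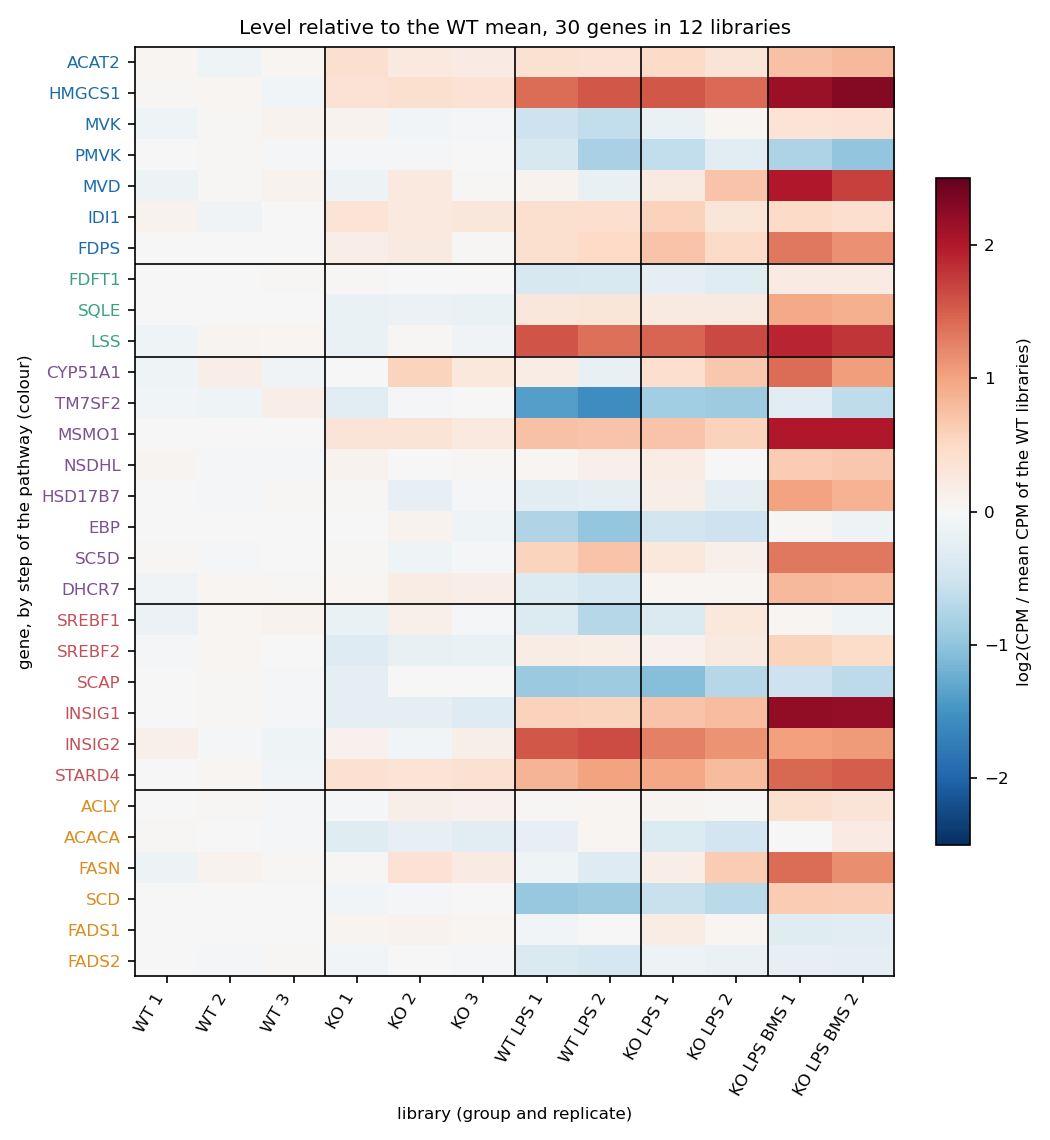
Level of each of the 30 genes (rows, coloured by role from mevalonate at the top to fatty acids at the bottom) in each of the 12 libraries (columns), as log2 of the level in CPM over the mean of the WT libraries. The KO LPS BMS columns are the reddest for most rows, among them INSIG1, HMGCS1, MVD and MSMO1, while PMVK and FADS1 are lower there than in WT.

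The regulators did not all move alike. INSIG1 (chromosome 7, 155297776 to 155310235, GRCh38), the sterol-dependent brake on SREBP transport, was at 785 and 774 CPM in the KO LPS BMS libraries, at 278 and 288 CPM in KO LPS, at 250 and 249 CPM in WT LPS, at 170, 172 and 163 CPM in WT and at 144, 144 and 135 CPM in KO. The KO LPS BMS libraries stood far above all others, and no other group reached them. The rise over KO LPS was 2.75-fold (log2 fold change 1.46 ± 0.06, edgeR adjusted p = 1.51e-14). INSIG2, which encodes the related protein with the same holding role, was at 70 and 72.8 CPM with the compound and at 82.9 and 75 CPM in KO LPS. Its groups did not overlap, but the difference did not pass (-0.14 ± 0.08, edgeR adjusted p = 0.168), so that the pair of INSIG genes gave different readings under the compound. SREBF2, whose product is more tied to sterol synthesis, rose from 289 and 317 CPM to 397 and 371 CPM (0.34 ± 0.07, edgeR adjusted p = 0.000183). SREBF1, whose products are more tied to fatty acid synthesis, was at 104 and 161 CPM in KO LPS and 138 and 125 CPM with the compound. The wide KO LPS pair enclosed both values (0.00 ± 0.22, edgeR adjusted p = 0.99). SCAP rose from 33.3 and 42.2 CPM to 48.8 and 44.1 CPM (0.30 ± 0.10, edgeR adjusted p = 0.0241), and the call was lost without KO LPS replicate 1, where the difference was 0.18, without KO LPS BMS replicate 1, or with library sizes alone as the scale. Without KO LPS replicate 2 the difference was 0.48. STARD4, a soluble carrier of cholesterol, rose from 230 and 203 CPM to 320 and 339 CPM (0.60 ± 0.07, edgeR adjusted p = 2.5e-07).

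Sequence upstream of these genes is shown because most members rose with the compound, INSIG1 among them, while INSIG2 was not called. Each run is the 250 bases before a transcript start from RefSeq on GRCh38.p14, read 5′ to 3′ on the gene's strand, for 3 regulators (INSIG1, SREBF2 and INSIG2) and 3 enzyme genes that rose at least 2-fold (MSMO1, MVD and SCD). Capitals mark a core sterol regulatory element, the site type that SREBPs bind (CACNCCAC, or GTGGNGTG on the other strand), and a CCAAT box, the site of the factor NF-Y that is known to act beside SREBPs (CCAAT, or ATTGG on the other strand). RefSeq and the GENCODE positions used here can place a start differently, so a window can reach into the gene as GENCODE draws it. The windows are chr7:155297628-155297877 (plus strand) for INSIG1, chr22:41832855-41833104 (plus) for SREBF2, chr2:118088221-118088470 (plus) for INSIG2, chr4:165327419-165327668 (plus) for MSMO1, chr16:88663092-88663341 (minus) for MVD and chr10:100346983-100347232 (plus) for SCD.
INSIG1: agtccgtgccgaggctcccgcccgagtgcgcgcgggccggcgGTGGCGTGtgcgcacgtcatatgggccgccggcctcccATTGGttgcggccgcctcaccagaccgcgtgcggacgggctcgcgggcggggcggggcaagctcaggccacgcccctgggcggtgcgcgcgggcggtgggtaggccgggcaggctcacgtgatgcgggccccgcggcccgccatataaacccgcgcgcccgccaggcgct
SREBF2: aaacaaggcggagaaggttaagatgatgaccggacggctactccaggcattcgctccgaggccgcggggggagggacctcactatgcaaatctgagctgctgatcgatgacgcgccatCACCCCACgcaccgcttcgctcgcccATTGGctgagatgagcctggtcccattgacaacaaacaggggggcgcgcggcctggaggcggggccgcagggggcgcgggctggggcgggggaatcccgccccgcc
INSIG2: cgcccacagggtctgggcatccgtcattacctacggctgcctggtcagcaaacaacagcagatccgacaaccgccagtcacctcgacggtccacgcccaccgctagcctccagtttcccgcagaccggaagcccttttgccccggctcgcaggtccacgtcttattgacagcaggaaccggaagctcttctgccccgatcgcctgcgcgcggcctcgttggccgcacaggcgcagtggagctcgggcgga
MSMO1: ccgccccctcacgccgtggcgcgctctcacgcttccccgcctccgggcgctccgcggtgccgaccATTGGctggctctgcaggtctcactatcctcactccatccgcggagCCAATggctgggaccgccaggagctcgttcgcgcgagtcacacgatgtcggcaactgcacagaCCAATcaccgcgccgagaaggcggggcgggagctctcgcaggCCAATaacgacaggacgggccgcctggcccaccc
MVD: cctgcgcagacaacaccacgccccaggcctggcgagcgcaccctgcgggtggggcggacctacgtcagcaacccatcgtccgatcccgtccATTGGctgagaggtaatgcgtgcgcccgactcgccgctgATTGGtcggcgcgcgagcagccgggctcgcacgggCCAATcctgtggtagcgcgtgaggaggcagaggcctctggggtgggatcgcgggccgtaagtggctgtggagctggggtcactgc
SCD: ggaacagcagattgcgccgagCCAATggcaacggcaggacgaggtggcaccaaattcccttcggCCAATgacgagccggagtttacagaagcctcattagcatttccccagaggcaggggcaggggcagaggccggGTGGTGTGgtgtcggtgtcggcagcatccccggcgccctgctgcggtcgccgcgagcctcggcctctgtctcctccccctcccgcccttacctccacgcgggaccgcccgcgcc

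The INSIG1 window held the sterol element core from 208 to 201 bases before the start and a CCAAT box from 170 to 166, and SREBF2 held the core from 132 to 125 and a CCAAT box from 106 to 102. The MSMO1 window held 4 CCAAT boxes and the MVD window 3, with no exact core in either, while SCD held 2 CCAAT boxes and the core. INSIG2, with 2 starts in RefSeq of which 1 is shown, had no match to either motif in the windows of both starts. RefSeq windows were found for 26 of the 30 genes, and ACAT2, FDFT1, SQLE and FASN had no entry. A CCAAT box stood in at least 1 window of 19 of the 26 (73.1%) against 37.0% of 27305 genes, and in 63.9% of the 36 windows against 32.0% of 35116 windows of all genes. The exact sterol element core stood in 6 of the 26 (23.1%, IDI1, SC5D, SREBF2, INSIG1, ACACA and SCD) against 5.89% of genes, and the E-box CACGTG, which also reads the same on the other strand, in 3 (11.5%, SC5D, SCAP and INSIG1) against 7.73%. Of the 19 genes with a CCAAT box, 18 were called higher with the compound and 1, IDI1, was not called (median log2 fold change 0.605). Of the 7 without one, CYP51A1 and SCAP were called higher, PMVK and FADS1 lower, and SREBF1, INSIG2 and FADS2 were not called (median -0.072). The other 2 motifs separated the calls less. With the sterol element core 5 of 6 genes were called higher, and without it 15 of 20 (medians 0.823 and 0.444). For the E-box these were 3 of 3 and 17 of 23 (medians 1.114 and 0.445). How often genes outside the set with a CCAAT box were called higher was not counted. These matches describe letters in a window, were set beside the calls after earlier results of these data were known, and were not tested.

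Of the 7 mevalonate pathway genes, 5 rose with the compound and 1 fell. MVD, the mevalonate diphosphate decarboxylase (chromosome 16, 88651935 to 88663161), was at 186 and 152 CPM with the compound against 54.4 and 76.3 CPM in KO LPS, and all 8 remaining libraries lay between 40.9 and 55.5 CPM. It rose 2.59-fold over KO LPS (log2 fold change 1.37 ± 0.18, edgeR adjusted p = 0.000267). HMGCS1, the synthase that makes HMG-CoA, was at 252 and 275 CPM with the compound, 165 and 150 CPM in KO LPS, 149 and 166 CPM in WT LPS, 57.3, 58.2 and 53.8 CPM in WT and 72.4, 74.3 and 72.9 CPM in KO. The compound libraries stood highest and the vehicle libraries lowest, and the rise over KO LPS was 1.67-fold (0.74 ± 0.07, edgeR adjusted p = 2.01e-08). FDPS, the farnesyl diphosphate synthase, rose from 55.1 and 46.7 CPM to 83.8 and 74.6 CPM (0.63 ± 0.09, edgeR adjusted p = 3.57e-06). MVK, the mevalonate kinase, rose from 20.2 and 23.5 CPM to 29 and 29.5 CPM (0.42 ± 0.11, edgeR adjusted p = 0.00234). ACAT2, the cytosolic thiolase that joins acetyl-CoA units, rose by 0.37 ± 0.09 (edgeR adjusted p = 0.00123). In GENCODE release 29, 52.3% of its exon bases also lie in exons of other genes, among them SOD2 on the opposite strand. Whether the counting used strand could not be learned from the sources used here, so reads of ACAT2 and SOD2 may not be separated. SOD2 fell with the compound by 0.64 on the log2 scale. Antisense genes overlap 18.6% of the exon bases of FDPS and 14.8% of those of IDI1. PMVK, the phosphomevalonate kinase, went the other way, from 17.7 and 22.2 CPM to 15.7 and 13.6 CPM (-0.45 ± 0.13, edgeR adjusted p = 0.00868). Its call was lost without KO LPS replicate 2, where the difference was -0.28, or without KO LPS BMS replicate 2. IDI1, the isopentenyl diphosphate isomerase, was at 125 and 120 CPM against 134 and 111 CPM, and its groups overlapped (-0.01 ± 0.08, edgeR adjusted p = 0.962).

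All 3 genes of the squalene steps and all 8 of the steps from lanosterol to cholesterol rose with the compound, with median log2 fold changes of 0.473 and 0.703. SQLE, the squalene epoxidase, rose from 156 and 155 CPM to 256 and 247 CPM (log2 fold change 0.69 ± 0.06, edgeR adjusted p = 2.06e-09). FDFT1, the squalene synthase, rose from 152 and 145 CPM to 207 and 206 CPM (0.47 ± 0.06, edgeR adjusted p = 6.44e-07). LSS, the lanosterol synthase, rose less, from 214 and 243 CPM to 289 and 269 CPM (0.29 ± 0.08, edgeR adjusted p = 0.00682), and its call was lost without KO LPS BMS replicate 1 (adjusted p = 0.0706).

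MSMO1 (chromosome 4, 165327623 to 165343160), the methylsterol oxidase, was at 271 and 273 CPM with the compound, 111 and 102 CPM in KO LPS, 112 and 112 CPM in WT LPS, 85.4, 86.3 and 81 CPM in KO and 67.2, 68.4 and 68.4 CPM in WT. The compound libraries stood apart from every other, and the rise over KO LPS was 2.55-fold (log2 fold change 1.35 ± 0.06, edgeR adjusted p = 3.71e-13). SC5D (chromosome 11, 121292453 to 121308694), a sterol desaturase, was at 271 and 272 CPM with the compound, 131 and 120 CPM in KO LPS, 161 and 178 CPM in WT LPS and 102 to 112 CPM in the 6 vehicle libraries. It rose 2.17-fold over KO LPS (1.11 ± 0.07, edgeR adjusted p = 2.67e-11), and WT LPS was the next highest group. HSD17B7, a sterol ketoreductase, rose from 20.2 and 15.4 CPM to 36.4 and 33.1 CPM (0.96 ± 0.12, edgeR adjusted p = 9.44e-07). Its pseudogene HSD17B7P2 held 4 counts over all libraries, against 3937 for HSD17B7. How reads matching both were handled could not be learned from the sources used here. DHCR7, the reductase of a last step to cholesterol, rose from 97.3 and 97.7 CPM to 165 and 162 CPM (0.74 ± 0.07, edgeR adjusted p = 1.49e-08). The other rises were those of CYP51A1, the lanosterol demethylase (0.66 ± 0.17), NSDHL, a sterol dehydrogenase (0.56 ± 0.09), EBP, a sterol isomerase (0.45 ± 0.09) and TM7SF2, a sterol reductase (0.44 ± 0.15). CYP51A1 was counted low, at 14.3 and 18.2 CPM with the compound, and 83.2% of its exon bases lie in other annotated genes too. As with CD68, its count is therefore no sure measure of its level, here and in the other comparisons. It was kept among the 24 genes called higher. Its call was lost without KO LPS BMS replicate 1 (adjusted p = 0.0653). That of TM7SF2 was lost without the same library, where the difference was 0.25, or without KO LPS replicate 2.

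**Figure D2:**
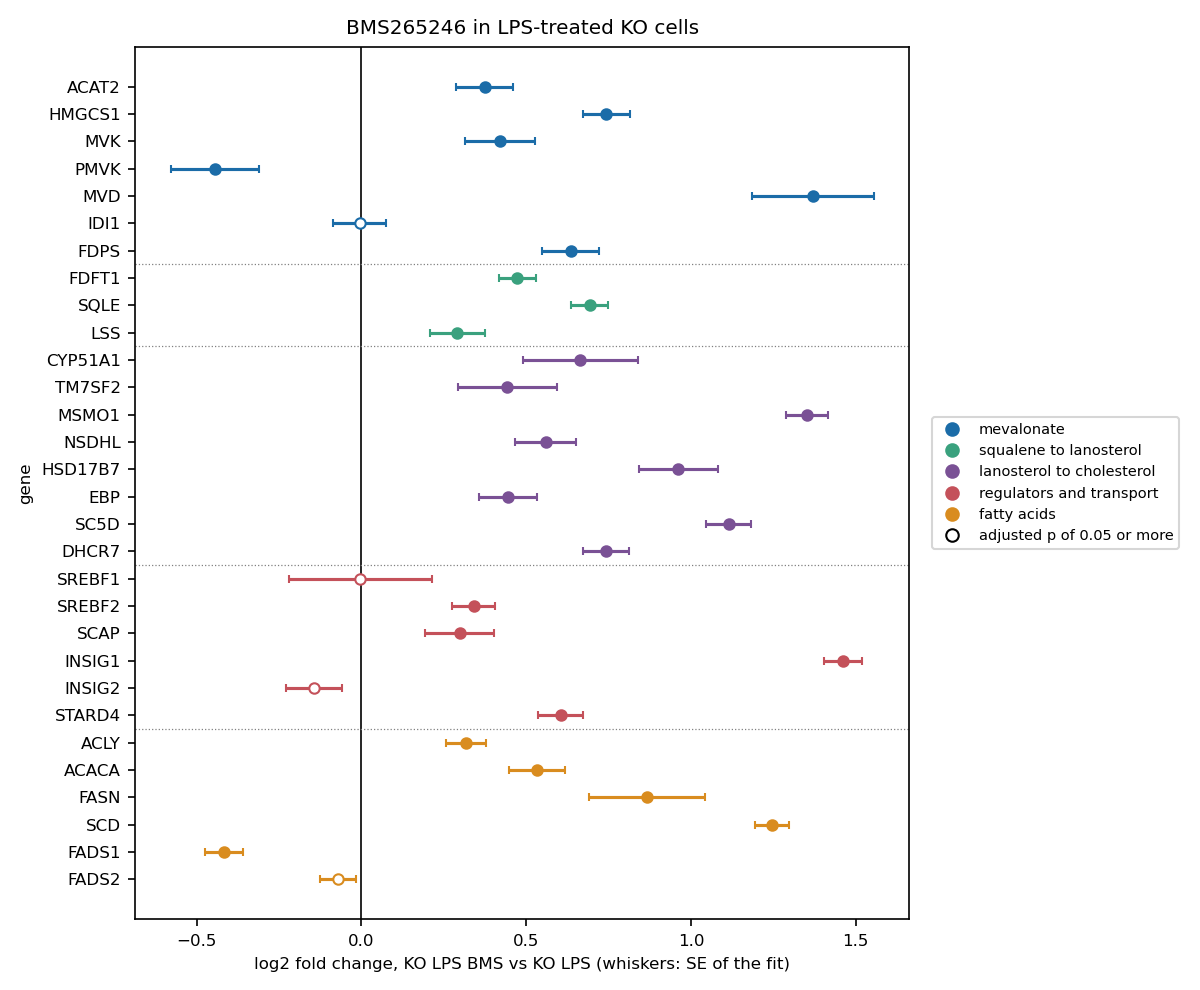
Log2 fold change of each gene in KO LPS BMS against KO LPS (horizontal axis, points) with its standard error (whiskers), grouped and coloured by role, with open points for genes whose adjusted p is 0.05 or more. Points lie right of 0 for 24 genes that were called, INSIG1 at 1.46 is farthest right, and PMVK and FADS1 are the called genes left of 0.

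Of the 6 fatty acid genes, 4 rose, 1 fell and 1 did not pass. SCD (chromosome 10, 100347124 to 100364834), the desaturase that makes monounsaturated fatty acids, was at 2275 and 2257 CPM with the compound and at 994 and 917 CPM in KO LPS. It was at 763 and 796 CPM in WT LPS and at 1398 to 1473 CPM in the 6 vehicle libraries. The LPS libraries were the lowest and the compound libraries the highest, so that the compound libraries passed the vehicle level as well (2.37-fold over KO LPS, log2 fold change 1.25 ± 0.05, edgeR adjusted p = 4.68e-14). FASN, the fatty acid synthase, was at 489 and 418 CPM against 207 and 290 CPM (0.87 ± 0.18, edgeR adjusted p = 0.00388). ACACA, the acetyl-CoA carboxylase that commits carbon to fatty acids, rose from 64.9 and 59.4 CPM to 83.7 and 95.7 CPM (0.53 ± 0.08, edgeR adjusted p = 2.31e-05). ACLY, which makes cytosolic acetyl-CoA from citrate, rose by 0.32 ± 0.06 (edgeR adjusted p = 0.000206). The desaturases of polyunsaturated fatty acids did not rise. FADS1 fell from 432 and 389 CPM to 305 and 309 CPM (-0.42 ± 0.06, edgeR adjusted p = 3.88e-06), below every other library, and FADS2 was at 340 and 328 CPM against 356 and 346 CPM (-0.07 ± 0.06, edgeR adjusted p = 0.3). FADS1 and FADS2 lie on opposite strands of chromosome 11 and share 5.6% and 4.9% of their exon bases with other genes, each other included.

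**Figure D3:**
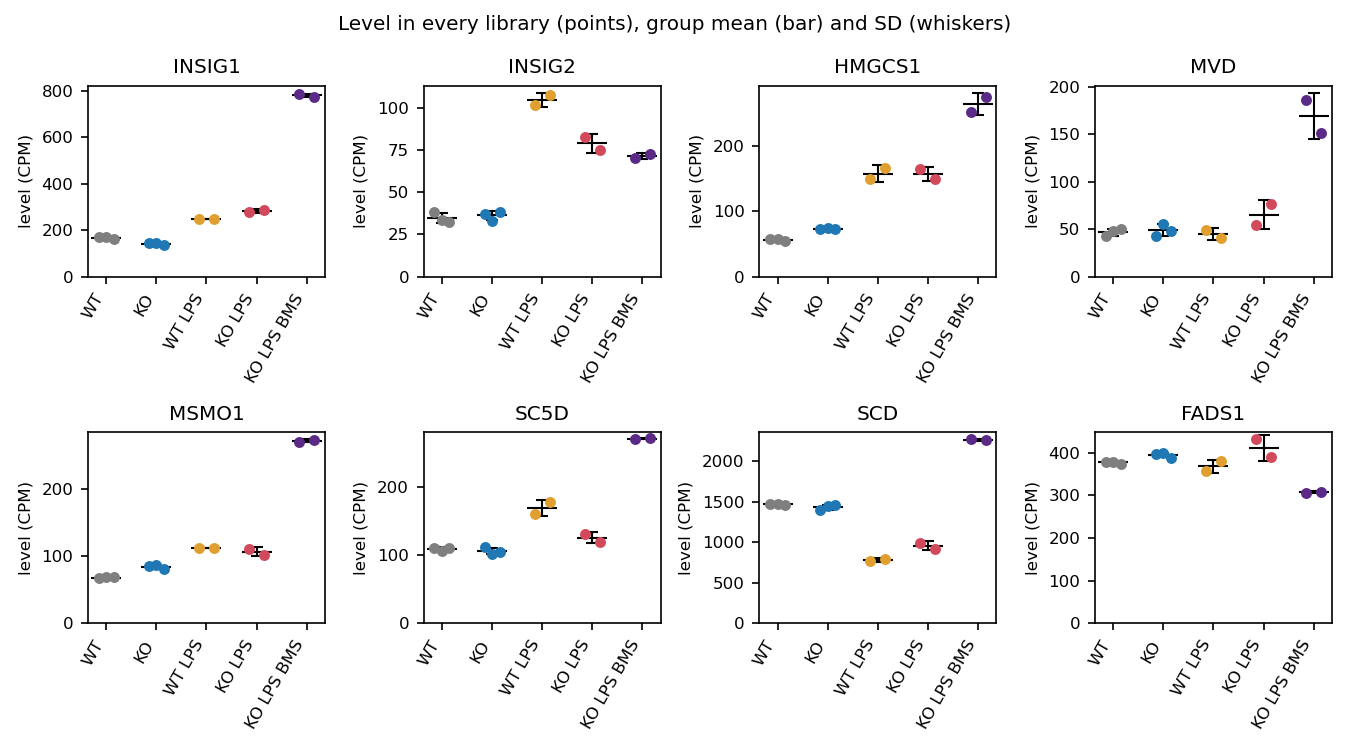
Level in CPM (vertical axis, from 0) of 8 genes in each library (points), with the group mean (bar) and SD (whiskers), for the 5 groups. INSIG1, HMGCS1, MVD, MSMO1, SC5D and SCD are highest in KO LPS BMS, INSIG2 is highest in WT LPS, and FADS1 is lowest in KO LPS BMS.

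The summed level of the 30 genes was 7807 ± 143 CPM (SD, n = 2) with the compound and 4751 ± 12.9 CPM (n = 2) in KO LPS, 4324 ± 14.4 CPM (n = 2) in WT LPS, 4610 ± 33.1 CPM (n = 3) in WT and 4629 ± 109 CPM (n = 3) in KO. SCD made up much of it, and without SCD the sums were 5541 CPM with the compound, 3796 CPM in KO LPS, 3545 CPM in WT LPS, 3144 CPM in WT and 3197 CPM in KO. The genes from lanosterol to cholesterol summed to 865 ± 11.3 CPM with the compound and to 433.9 ± 20.7 CPM in KO LPS. Per kilobase of annotated exon, SCD had the highest level of the set in every group, 273.5 CPM per kilobase in WT and 422.6 with the compound. INSIG1 was at 46.1 in WT and 213.5 with the compound, and MSMO1 went from 23.5 in WT to 94.1.

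**Figure D4:**
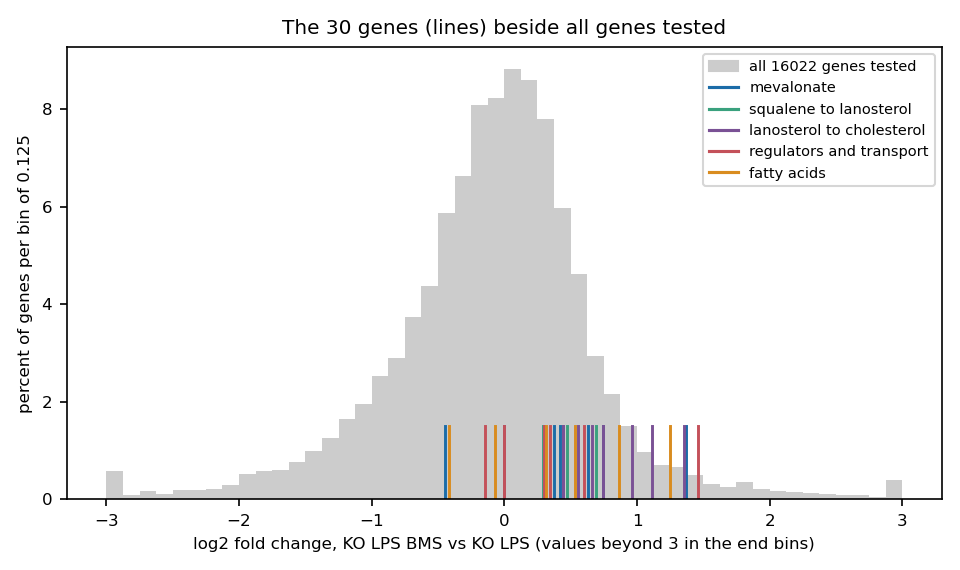
Percent of all genes tested per 0.125-wide bin of log2 fold change in KO LPS BMS against KO LPS (grey bars, vertical axis), with the 30 genes as vertical lines coloured by role. Of the 30 lines, 15 lie above 0.5, where 16.3% of all genes lie, and 5 above 1, where 5.11% lie.

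Cell type markers moved with the compound too. Of 14 microglia and macrophage markers tested, 9 were higher and 4 lower in KO LPS BMS than in KO LPS, beside 22.3% higher and 25.5% lower among all genes, and their summed level was 9571 and 8898 CPM against 8033 and 8689 CPM. Of 12 markers of monocytes and border macrophages, 5 were higher and 7 lower, with sums of 5668 and 5403 CPM against 5761 and 5778 CPM. Endothelial markers, nearly all of it PECAM1, summed to 469 and 476 CPM against 343 and 307 CPM, markers of blood progenitors to 243 and 224 CPM against 178 and 227 CPM, neuron and macroglia markers to 86.6 and 85.0 CPM against 66.2 and 65.8 CPM, and fibroblast markers to 23.3 and 20.8 CPM against 18.6 and 24.6 CPM. GATA2 made up most of the blood progenitor sum. Of the 6 blood progenitor markers 3 passed the filter, 1 of them higher and 1 lower. Of the 8 neuron and macroglia markers only MBP passed, with 20820 counts over all libraries against at most 57 for any other. The part of all these markers in the rise of the 30 genes was not tested. In bulk RNA a change in the number of cells of a kind and a change in RNA per cell cannot be told apart.

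Other genes around the pathway were called in both directions under the compound, and their counts stand beside the 22.3% of all genes called higher and 25.5% called lower. Of 11 genes of SREBP processing and turnover, 3 rose and 6 fell. RNF145, a sterol-responsive ubiquitin ligase, rose from 167 and 155 CPM to 278 and 292 CPM (log2 fold change 0.82 ± 0.06, edgeR adjusted p = 5.79e-10). MBTPS1, the first of the proteases that release SREBPs, fell by 0.33 on the log2 scale (edgeR adjusted p = 0.000427). Of 24 further genes of sterol and lipid synthesis, 11 rose and 6 fell. TMEM97, the sigma-2 receptor and a known SREBP target, rose from 17.9 and 15.8 CPM to 54.0 and 54.3 CPM (1.68 ± 0.09, edgeR adjusted p = 1.11e-12), and LPIN1, a phosphatidate phosphatase, rose by 1.34 ± 0.08 (edgeR adjusted p = 3.8e-11). GGPS1, which takes the mevalonate product toward protein prenylation, fell by 0.68 on the log2 scale (edgeR adjusted p = 6.16e-06). Of 17 genes of sterol uptake, storage and transport, 7 rose and 6 fell. NPC1 and LIPA, which free cholesterol in lysosomes, rose by 0.76 ± 0.06 and 0.72 ± 0.06 (edgeR adjusted p = 4.41e-10 and 2.46e-09). CD36, a scavenger receptor, and NCEH1, a cholesteryl ester hydrolase, fell by 0.56 and 0.44 on the log2 scale (edgeR adjusted p = 2.2e-06 and 1.72e-05). VLDLR, a lipoprotein receptor named after its values were seen, had the largest change of this list, from 2.38 and 1.85 CPM to 0.63 and 0.84 CPM (-1.51 ± 0.38, edgeR adjusted p = 0.00241). Of 13 targets of the oxysterol receptors LXR and oxysterol enzymes, 2 rose and 5 fell. CH25H, which makes the oxysterol known to restrain SREBP processing, was at 18.7 and 12.9 CPM with the compound, at 48.1 and 58.3 CPM in KO LPS, at 35.1 and 29.7 CPM in WT LPS and at 4.37 to 5.74 CPM in the vehicle libraries. It fell by 1.76 ± 0.14 on the log2 scale (edgeR adjusted p = 3.24e-09), to a level between those of vehicle and LPS alone.

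Against KO cells given vehicle, 22 of the 30 genes were higher in KO LPS BMS and 5 lower, where 62.7% of all genes were called, 30.3% higher and 32.4% lower. With library sizes alone as the scale, 17 were higher and 8 lower, and among all genes 2852 were called higher and 8071 lower. Here LPS and the compound differ together, and the libraries of this comparison also stand in the comparisons above and below. A rise of at least 2-fold was called for 10 members against 9.92% of all genes, and a fall of that size for 0 against 12.7%. Both KO LPS BMS libraries lay above all KO libraries for 23 members (36% of all genes) and below them for 4 (40.2%). INSIG1 was 5.53-fold higher (log2 fold change 2.47 ± 0.05, edgeR adjusted p = 1.79e-20), LSS 3.78-fold (1.92 ± 0.08, edgeR adjusted p = 2.56e-14) and HMGCS1 3.60-fold (1.85 ± 0.06, edgeR adjusted p = 1.86e-16). The members lower than in KO were PMVK (-0.86), SCAP (-0.51), FADS1 (-0.36), TM7SF2 (-0.33) and FADS2 (-0.18). The call of TM7SF2 was lost without KO replicate 2, KO replicate 3 or KO LPS BMS replicate 2 (log2 fold change -0.14 without the last), its groups overlapped, and without KO LPS BMS replicate 1 the difference was -0.53. That of FADS2 was lost without KO LPS BMS replicate 2.

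With LPS alone members were called in both directions, as were genes as a whole. In WT cells 12 of the 30 genes rose and 9 fell, with 59.7% of all genes called, 28.9% higher and 30.8% lower. In KO cells 10 rose and 6 fell, with 44.8% called, 24.5% higher and 20.3% lower. These comparisons share no library. A rise of at least 2-fold was called for 3 members in WT (8.38% of all genes) and 4 in KO (6.49%), and a fall of that size for 1 in WT (11.8%) and 0 in KO (4.68%). The LPS libraries lay above all vehicle libraries for 13 members in WT (33.9% of all genes) and 10 in KO (32%), and below them for 11 in WT (38.4%) and 8 in KO (30%). Of the members, 10 rose in both genotypes, 6 fell in both, 2 rose and 3 fell in WT with no call in KO, 9 were called in neither and 0 were called in opposite directions. How often all genes tested were called alike or opposite in both genotypes was not counted. The median over the 30 genes was -0.01 in WT and 0.09 in KO, beside -0.07 and 0.00 over all genes. With library sizes alone as the scale, which moved the medians of all genes to -0.36 and -0.26, 7 members rose and 15 fell in WT, and 5 rose and 12 fell in KO. On that scale 2791 of all genes were called higher and 7651 lower in WT, and 2195 higher and 6408 lower in KO. Cell type markers moved with LPS as well. Endothelial markers summed to 508 to 541 CPM in WT and 221 and 248 CPM in WT LPS, and to 559 to 593 CPM in KO and 343 and 307 CPM in KO LPS. Those of monocytes and border macrophages summed to 3442 to 3668 CPM in WT and 4354 and 4314 CPM in WT LPS, and to 5125 to 5193 CPM in KO and 5761 and 5778 CPM in KO LPS, with 6 of 12 higher and 3 lower in WT and 6 higher and 5 lower in KO. Of 14 microglia and macrophage markers 2 were higher and 6 lower in WT, and 2 higher and 5 lower in KO. Neuron and macroglia markers, nearly all of it MBP, summed to 139 to 150 CPM in WT and 51.0 and 47.7 CPM in WT LPS. In KO they summed to 119 to 134 CPM, and in KO LPS to 66.2 and 65.8 CPM. The part of all these marker groups in the changes of the 30 genes was not tested.

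The rises were largest for LSS, HMGCS1 and INSIG2. LSS (chromosome 21, 46188141 to 46228824) was at 232 and 201 CPM in WT LPS and 214 and 243 CPM in KO LPS against 69.2 to 81.4 CPM in the 6 vehicle libraries, with log2 fold changes of 1.48 ± 0.08 in WT and 1.63 ± 0.08 in KO (edgeR adjusted p = 1.33e-12 and 5.23e-13). No LPS library came near the vehicle range. HMGCS1 rose by 1.48 ± 0.07 in WT and 1.10 ± 0.07 in KO (edgeR adjusted p = 1.25e-14 and 3.55e-12). INSIG2 was at 102 and 108 CPM in WT LPS, 82.9 and 75 CPM in KO LPS, 38, 33.6 and 32.2 CPM in WT and 37.1, 33.2 and 38.4 CPM in KO, so that LPS raised it in both genotypes and the WT LPS libraries lay highest of all 12 (1.60 ± 0.08 and 1.12 ± 0.08, edgeR adjusted p = 4.89e-14 and 6.38e-11). STARD4, MSMO1, SC5D, INSIG1, FDPS, SQLE and SREBF2 were the others that rose in both, by 0.18 to 0.93 in WT and 0.24 to 1.01 in KO. For SREBF2 the call in WT was lost without WT replicate 1 or WT LPS replicate 1, and its value was -0.11 with library sizes alone as the scale. For SC5D the call in KO was lost without KO LPS replicate 1, where the rise was 0.14, and its value was -0.01 with library sizes alone. For FDPS in KO the rise was 0.29 without KO LPS replicate 1.

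The falls were largest for TM7SF2, SCD, SCAP and EBP. SCAP was at 69.9, 71.2 and 67.5 CPM in WT and 36.5 and 37.6 CPM in WT LPS, and at 58.7, 70.2 and 69.5 CPM in KO and 33.3 and 42.2 CPM in KO LPS. The LPS libraries lay below every vehicle library in both genotypes (log2 fold change -0.91 ± 0.09 and -0.81 ± 0.09, edgeR adjusted p = 4.42e-08 and 4.17e-07). SCD fell by 0.91 on the log2 scale in WT and by 0.58 in KO (edgeR adjusted p = 2.17e-13 and 7.35e-10). TM7SF2 fell from 19.3, 18.8 and 23 CPM to 7.83 and 6.94 CPM in WT (-1.47 ± 0.14, edgeR adjusted p = 6.79e-09), and from 16.8, 19.7 and 20.2 CPM to 11.1 and 10.9 CPM in KO (-0.78 ± 0.13, edgeR adjusted p = 4.78e-05). EBP, PMVK and FDFT1 fell in both genotypes as well. The call of PMVK in KO was lost without KO LPS replicate 1 (adjusted p = 0.0806). ACAT2 and IDI1 rose and MVK, DHCR7 and FADS2 fell in WT without a call in KO. With library sizes alone as the scale, the calls of ACAT2 and IDI1 in WT were lost (edgeR adjusted p = 0.391 and 0.154). SOD2, which shares exon bases with ACAT2, rose with LPS and held 929847 counts over all libraries against 8260 for ACAT2. The rise of ACAT2 in WT, 0.37 on the log2 scale, may therefore hold reads of SOD2, which was not tested.

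The test of the difference between these responses, a genotype by LPS interaction, called 12 of the 30 genes, where 12% of all genes were called, 6.42% in the positive and 5.57% in the negative direction. A difference of at least 2-fold was called for 0 members in either direction (0.893% and 0.587% of all genes). For 7 the log2 response was more positive in KO (INSIG1, SCD, MVK, TM7SF2, FADS2, EBP and DHCR7), and for 5 it was less positive (INSIG2, STARD4, SC5D, MSMO1 and HMGCS1). INSIG1 rose by 0.57 ± 0.05 in WT and by 1.01 ± 0.05 in KO, a difference of 0.44 ± 0.07 (edgeR adjusted p = 0.000341). INSIG2 went the other way, with a difference of -0.47 ± 0.11 (edgeR adjusted p = 0.00668). STARD4 was at 119, 122 and 113 CPM in WT and 214 and 238 CPM in WT LPS, and at 154, 150 and 154 CPM in KO and 230 and 203 CPM in KO LPS. It was higher in KO than in WT under vehicle and overlapped under LPS, with a difference of responses of -0.43 ± 0.09 (edgeR adjusted p = 0.00275). Calls of the interaction held in each of 18 alternative settings for 6 of the 12 genes (INSIG1, SCD, INSIG2, STARD4, SC5D and MSMO1). For the other 6, the call was lost in 11 settings for EBP, 10 for DHCR7, 4 for TM7SF2, 3 for MVK, 2 for HMGCS1 and 1 for FADS2. The single libraries that ended a call were WT LPS replicate 2 and KO LPS replicate 2 for HMGCS1, both of these and WT replicate 3 for MVK, and these 3 and KO replicate 1 for TM7SF2. For EBP they were WT replicates 1, 2 and 3, KO replicates 1 and 3, WT LPS replicate 2 and KO LPS replicate 1. For DHCR7 they were WT replicates 2 and 3, KO replicates 1 and 3, WT LPS replicate 2 and KO LPS replicates 1 and 2.

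**Figure D5:**
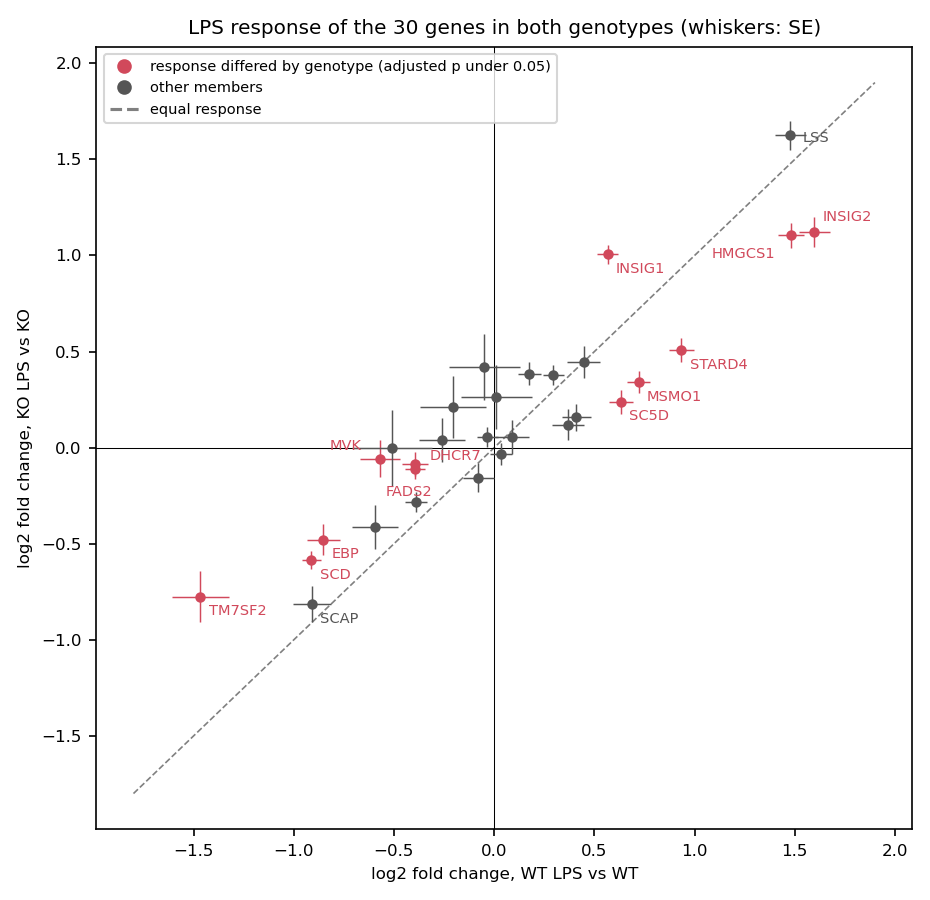
Log2 fold change with LPS in WT cells (horizontal axis) and in KO cells (vertical axis) for the 30 genes, with standard errors as whiskers. Red points are the 12 genes whose response differed by genotype, grey points the others, and the dashed line marks equal responses; INSIG1 lies above the line, and INSIG2, HMGCS1, STARD4, MSMO1 and SC5D lie below it.

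Between genotypes under LPS, 10 members were higher in KO LPS than in WT LPS and 3 lower (SC5D, INSIG2 and ACACA), where 30.6% of all genes were called, 15.6% higher and 15% lower, and 0 differed by 2-fold in either direction (4.39% higher and 1.23% lower). Both KO LPS libraries lay above both WT LPS libraries for 13 members (30.8% of all genes) and below them for 5 (29.1%). DHCR7 was at 97.3 and 97.7 CPM in KO LPS and 73.9 and 69.4 CPM in WT LPS, 1.36-fold higher (log2 fold change 0.45 ± 0.07, edgeR adjusted p = 5.8e-05). MVK was at 20.2 and 23.5 CPM against 15.9 and 14.9 CPM (0.51 ± 0.11, edgeR adjusted p = 0.00154), and SCD at 994 and 917 CPM against 763 and 796 CPM (0.29 ± 0.05, edgeR adjusted p = 0.000149). SC5D was at 131 and 120 CPM against 161 and 178 CPM (-0.43 ± 0.07, edgeR adjusted p = 5.3e-05). In each of these 4 genes the groups did not overlap. Of the other calls, the one for TM7SF2 (0.58 ± 0.16) was lost without WT LPS replicate 2, and so were those for EBP (0.37 ± 0.09), INSIG1 (0.18 ± 0.06), CYP51A1 (0.54 ± 0.19), FASN (0.63 ± 0.18) and ACACA (-0.33 ± 0.09, -0.21 without it). The calls for INSIG1, CYP51A1, FASN and ACACA were also lost without KO LPS replicate 2, where FASN differed by 0.36, and that for FASN without WT LPS replicate 1. The call for FADS1 (0.16 ± 0.06) was lost in 15 of 18 settings, among them the removal of any 1 of 10 libraries, and was 0.05 without KO LPS replicate 1. FADS2 (0.24 ± 0.06) kept its call when any 1 library was left out. The number of members called higher was 5 without WT LPS replicate 2. Markers of monocytes and border macrophages differed between these groups too, with 7 of 12 higher and 2 lower in KO LPS and sums of 5761 and 5778 CPM against 4354 and 4314 CPM. Of 5 endothelial markers tested, 4 were higher and 0 lower, with sums of 343 and 307 CPM against 221 and 248 CPM, and of 14 microglia and macrophage markers 4 were higher and 5 lower. For the interaction, 2 of the 12 monocyte and border macrophage markers were called in the positive and 6 in the negative direction. The part of these markers in the differences of the 30 genes was not tested.

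Under vehicle, 5 members were higher in KO than in WT and 4 lower, where 21.6% of all genes were called, 10.2% higher and 11.4% lower, while a 2-fold change was called for 0 in either direction (2.49% higher and 1.19% lower). All KO libraries lay above all WT libraries for 7 members (18.1% of all genes) and below them for 4 (22.3%). HMGCS1 was at 72.4, 74.3 and 72.9 CPM in KO against 57.3, 58.2 and 53.8 CPM in WT (log2 fold change 0.38 ± 0.06, edgeR adjusted p = 8.18e-05). STARD4 rose by 0.37 ± 0.06, MSMO1 by 0.31 ± 0.05, IDI1 by 0.29 ± 0.07 and ACAT2 by 0.28 ± 0.07. These 5 genes are among the 7 without overlap. INSIG1, ACACA, SREBF2 and SQLE fell, INSIG1 from 170, 172 and 163 CPM to 144, 144 and 135 CPM (-0.26 ± 0.05, edgeR adjusted p = 0.00027), SREBF2 from 259, 280 and 270 CPM to 217, 238 and 240 CPM (-0.22 ± 0.05, edgeR adjusted p = 0.00423), and SQLE by 0.16 on the log2 scale. The call of ACAT2 was lost without WT replicate 2 or KO replicate 1, and that of SQLE without WT replicate 3, KO replicate 1 or KO replicate 3. Summed markers of monocytes and border macrophages were 3442 to 3668 CPM in WT and 5125 to 5193 CPM in KO, with 9 of 12 higher and 1 lower, and their part in these differences was not tested.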

How the data were processed

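Raw read counts per gene in 12 libraries were used as the authors deposited them, whole numbers in 1 table with 1 column per library. RNA was extracted with TRIzol and mRNA libraries were made with an NEBNext Ultra kit, per the labels' protocols. CASAVA 1.7, Cufflinks and GRCh38 are named in the submitters' processing notes; the sources used here name no aligner, counter, strand setting or annotation release. Groups come from the sample titles. Symbols came from a gene name table (56948 identifiers) and from GENCODE release 29 (440 more); 604 had none.

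Genes were filtered with filterByExpr, scaled by TMM (factors 0.872 to 1.117) and fitted with edgeR 4.0.16 in R 4.3.3 (quasi-likelihood, robust) over all 12 libraries with 1 mean per group, so that groups of 2 libraries borrow the spread of the rest; the common biological coefficient of variation was 0.064. The 7 comparisons were tested 2-sided, with Benjamini-Hochberg adjustment over 16022 genes and calls under 0.05. Levels are TMM-scaled CPM. All 30 genes were named, together with MEF2C and the LPS check genes. In each further list up to 2 called genes per direction with the lowest adjusted p were named, of which part is given. VLDLR, PECAM1, GATA2, MBP and CD68 were singled out after their values were seen, and HSD17B7P2 was named as the pseudogene of HSD17B7. The members and lists were chosen with earlier results of these data known. Alternatives were RLE scaling, library sizes alone, no filter, DESeq2 1.42.0, a replicate block, only the groups compared, and each library left out in turn.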

Additional observations from a re-analysis of the deposited data

Results flagged for a closer look

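The LPS response of 12 of the 30 genes differed between the genotypes by the interaction test of edgeR at an adjusted p under 0.05, which is why they are listed. As the log2 response in KO minus that in WT, the values were 0.69 for TM7SF2, 0.51 for MVK, 0.44 for INSIG1, 0.37 for EBP, 0.33 for SCD, 0.31 for DHCR7 and 0.28 for FADS2. They were -0.47 for INSIG2, -0.43 for STARD4, -0.39 for SC5D, -0.38 for MSMO1 and -0.38 for HMGCS1. Among all genes tested, 12% were called, and 6 of these 12 calls ended in at least 1 alternative setting.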

How the results depend on the processing

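Over 18 planned settings, 20 of the 24 rises with the compound against KO LPS were called in every one, and none of the 26 called members changed direction in that comparison; of those not called, IDI1 ranged from -0.136 to 0.179 and SREBF1 from -0.245 to 0.343. Library sizes alone as the scale gave, for the members, 7 higher and 15 lower in WT LPS against WT, 5 and 12 in KO LPS against KO, 4 lower in KO LPS BMS against KO LPS and 8 lower against KO. It also reversed SREBF2 (-0.11) and ACLY (-0.251) in WT LPS against WT, SC5D (-0.014) and FADS1 (-0.196) in KO LPS against KO, and IDI1 (-0.186), FDFT1 (-0.145) and ACLY (-0.055) in KO LPS BMS against KO. The share of calls that were higher moved from 48.41% to 26.73%, from 54.69% to 25.51% and from 48.36% to 26.11% in these 3 comparisons. For the interaction it moved from 53.54% to 65.26%, and to 43.45% with RLE scaling. With only the groups compared, KO LPS against WT LPS gave 2660 genes instead of 4900 and 5 members higher instead of 10, and the interaction 4 members higher instead of 7.

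Leaving out 1 library in turn gave 3005 to 5549 genes and 5 to 11 members higher in KO LPS against WT LPS, and 1162 to 3079 genes and 3 to 7 members higher for the interaction. Without KO LPS replicate 2 these were 3005 and 1162 genes, with 4 members higher for the interaction, and without WT LPS replicate 2 they were 3138 and 1212 genes, with 5 and 3 members higher. The interaction gave 3079 genes without KO LPS replicate 1, 3 members higher without WT replicate 3 and 4 without KO replicate 1. Members lower were 1 to 2 in KO LPS BMS against KO LPS (1 without KO LPS replicate 2 or KO LPS BMS replicate 2) and 3 to 5 against KO (3 without KO LPS BMS replicate 2), and members higher were 20 to 24 and 22 to 23. Where an arm was left with 1 library, it is assumed to vary like the other groups. Same-numbered libraries did not deviate together (r from -0.143 to 0.103 over 21 pairs), and the number was not used as a pairing in the main fit. In groups of 2 the deviations mirror each other, so pairs between such groups repeat the same value. The check cannot show that same-numbered libraries were made separately. With the replicate block the calls were 3091 for KO against WT, 8973 for WT LPS against WT and 6562 for KO LPS against KO. They were 4454 for KO LPS against WT LPS, 1543 for the interaction, 7379 for KO LPS BMS against KO LPS and 9551 against KO. With the KO LPS numbers crossed, a setting chosen after seeing the data, the replicate block gave 4651 genes for KO LPS against WT LPS and 7514 for KO LPS BMS against KO LPS. No member was counted near the limit that a count of 0 allows. The cause of these shifts was not tested.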
